A study of Mus musculus with 6 samples.

Results

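The genes described here are 8 genes of cholesterol synthesis that the transcription factor SREBP2 controls. They are the regulators Srebf2 and Insig1 and the enzymes Hmgcs1, Idi1, Fdps, Fdft1, Sqle and Lss. These 8 genes and the lists below were chosen by symbol from knowledge of the pathway, with earlier results of these data known. Their shares beside those of all genes are therefore descriptive. All 8 were found among the 55536 genes of the count tables, and all 8 passed the filter on low counts, as did 22404 genes in total. RNA was sequenced from satellite cells, the stem cells of skeletal muscle, in 3 control and 3 cKO samples. The control mice carried Pax7CreErt2 and 1 floxed Hira allele (Pax7CreErt2;Hira fl/+; the sample labels call them WT), and the cKO mice carried Pax7CreErt2 and floxed Hira on both alleles (Pax7CreErt2;Hira fl/fl). Both groups were adult male mice on a C57BL/6J background, and by the study's methods they received a tamoxifen diet, which switches on the Cre recombinase in cells that express Pax7, and then a BaCl2 injection that injures the muscle. Cells were sorted 5 days after injury as positive for CD34 and ITGA7 and negative for CD45, TER119 and SCA1, a gate meant to remove blood cells and SCA1+ cells, and were kept for 48 h in medium rich in serum. The RNA samples are stated to be independent, but it is not stated that each came from its own mouse, so the p-values measure the spread between these samples.

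Animal cells make cholesterol from acetyl-CoA. HMG-CoA synthase (Hmgcs1) acts at the start, isopentenyl diphosphate isomerase (Idi1) and farnesyl diphosphate synthase (Fdps) build the isoprenoid chain, squalene synthase (Fdft1) joins chains into squalene, and squalene epoxidase (Sqle) and lanosterol synthase (Lss) turn squalene into the first sterol. When sterol in the membrane of the endoplasmic reticulum is low, SCAP escorts SREBP2 to the Golgi, where the proteases encoded by Mbtps1 and Mbtps2 release its active part. When sterol is high, INSIG1 holds SCAP and SREBP2 back. The enzyme genes, Insig1 and Srebf2 itself are targets of active SREBP2, so their transcripts are often read together. The cells of both groups grew in serum, which supplies cholesterol in lipoproteins.

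The tables held 47944477 to 63323577 counts per sample. Hira itself had 375, 348 and 341 counts in control replicates 1 to 3 and 161, 293 and 272 counts in cKO replicates 1 to 3, a log2 fold change of -0.43 (SE, the standard error, 0.12, edgeR adjusted p = 0.0237). Without control replicate 1 its adjusted p was 0.104, and without cKO replicate 1, the lowest sample, its log2 fold change was -0.29 (adjusted p = 0.0459, both from edgeR). The counts are of the whole gene and not of its floxed part alone. In satellite cells of such mice, the paper reports a sharp drop of Hira by RT-qPCR and no detected HIRA protein. The myogenic markers were high in all samples, with a summed level of 9790 to 9899 normalised CPM in control and 8481 to 9119 in cKO. CPM is the count of a gene as a share of the library, here scaled by the TMM method. Of these 12 markers, 9 were lower in cKO at an adjusted p under 0.05 in edgeR, where 6.46% of all genes tested were. The other 3 were not called and had a log2 fold change above 0, at most 0.15. Many markers of other cells were higher in cKO, where 9.38% of all genes tested were. All 14 macrophage markers were higher in cKO, with a sum of 146 to 150 CPM in control and 306 to 353 CPM in cKO. So were 6 of 10 tested fibroblast markers (1104 to 1184 against 1486 to 1632 CPM), and the other 4 were not called. Of 12 endothelial markers, 5 were higher (22.9 to 25.1 against 33.1 to 39.0 CPM) and 7 were not called. DESeq2 called 3 endothelial markers higher. In these lists, 0 genes were at 0 counts in all samples. In bulk RNA, fewer cells of a type and less RNA per cell cannot be told apart. The paper proposes that satellite cells without Hira express more genes of other lineages, such as endothelial and cardiac genes. It reports VE-Cadherin (Cdh5) staining in such cells. The part of other cells, or of such expression, in the results on the 8 genes was not tested. The gate would remove cells with CD45 or SCA1 on their surface before the culture. Ptprc, which encodes CD45, had 1.28 to 1.55 CPM in control and 2.61 to 2.98 CPM in cKO. Ly6a, which encodes SCA1, had 2.88 to 3.18 and 3.33 to 3.80 CPM. Of 13 markers of cycling cells, 3 were lower in cKO in edgeR's test (2 in DESeq2) and 0 were higher. All 13 had a log2 fold change under 0, and their sum was 1275 to 1300 CPM in control and 1113 to 1217 CPM in cKO. The part of cell cycling in the results on the 8 genes was not tested.

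Of the 8 genes, 3 were lower in cKO at an adjusted p under 0.05 (Srebf2, Hmgcs1 and Idi1) and 0 were higher. In all genes tested, 15.8% passed this threshold, 6.46% as lower and 9.38% as higher. The median log2 fold change was -0.08 over the 8 genes and -0.0011 over all genes tested. At an unadjusted p under 0.05, 4 of the 8 genes were lower and 0 higher, and DESeq2 called 2 lower (Srebf2 and Hmgcs1) and 0 higher. In normalised CPM the control and cKO samples did not overlap for 4 of the 8 genes, which were lower in cKO (the same 3 and Lss), where 31.8% of all genes had no overlap in either direction. The plot of the 8 genes by sample gives each value.

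**Figure D1:**
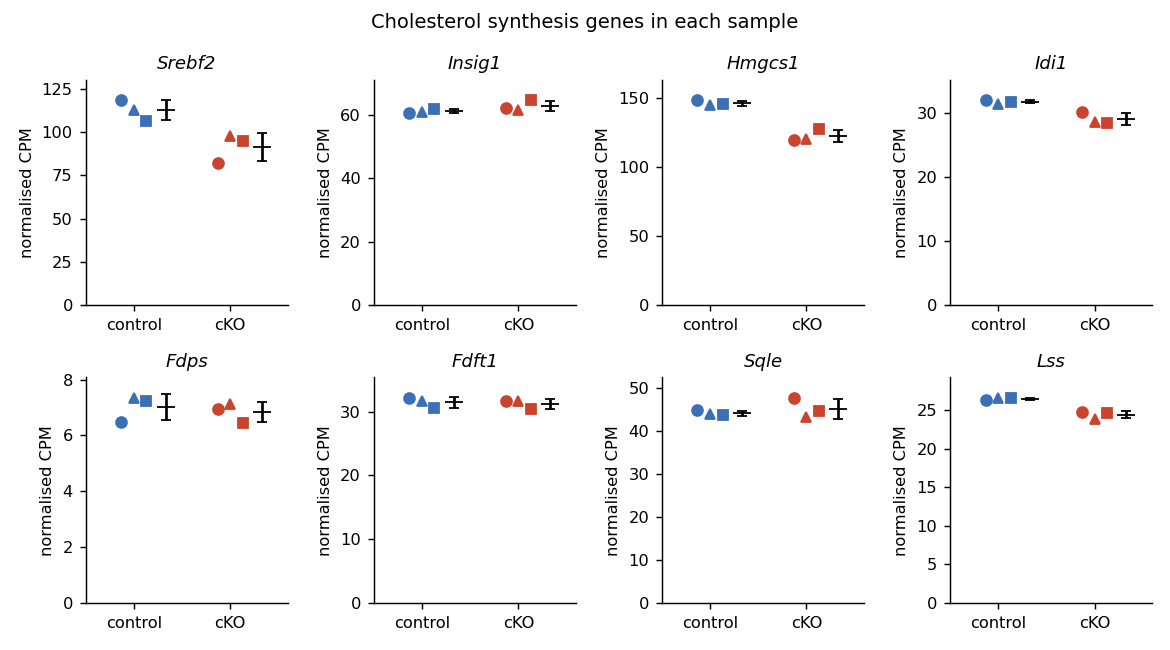
Normalised CPM (CPM scaled by TMM, vertical axes starting at 0) of the 8 genes in control (blue) and cKO (red) samples; circles, triangles and squares are replicates 1, 2 and 3, and the black marks give the mean ± SD of 3 samples. Srebf2 and Hmgcs1 lie lowest relative to control, with all cKO samples at or under 97.5 and 128 CPM, while the groups overlap for Insig1, Fdps, Fdft1 and Sqle.

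Of the regulators, Srebf2 was lower in cKO, while Insig1 did not pass the test. Srebf2 (ENSMUSG00000022463, chromosome 15 of mm10, 82147181 to 82205379), which encodes SREBP2, had 118, 113 and 107 normalised CPM in control replicates 1, 2 and 3 and 82.0, 97.5 and 94.6 CPM in the cKO replicates. The groups did not overlap, and cKO replicate 1 was the lowest. The mean went from 113 ± 5.87 to 91.4 ± 8.24 CPM (SD, n = 3 each), or a log2 fold change of -0.30 (SE 0.05, edgeR adjusted p = 0.00123), so the transcript fell by 18.8%. Without cKO replicate 1 the log2 fold change was -0.23 and still passed. Insig1 (ENSMUSG00000045294, chromosome 5, 28071363 to 28078662), whose product retains SREBP2 in the endoplasmic reticulum, had 60.5, 60.9 and 61.8 CPM in control and 62.2, 61.4 and 64.6 CPM in cKO. The groups overlapped, and the log2 fold change was 0.04 with a 95% interval of -0.04 to 0.11 (edgeR adjusted p = 0.541). The interval of Srebf2 was -0.42 to -0.18.

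Among the 6 enzymes of the 8 genes, Hmgcs1 had the largest log2 fold change. Hmgcs1 (ENSMUSG00000093930, chromosome 13, 119690379 to 119708260), which condenses acetyl-CoA and acetoacetyl-CoA to HMG-CoA, had 149, 145 and 146 CPM in control and 120, 121 and 128 CPM in cKO. The control samples lay close together and every cKO sample was below them. The mean went from 147 ± 1.78 to 123 ± 4.39 CPM (SD, n = 3 each), or a log2 fold change of -0.25 (SE 0.03, edgeR adjusted p = 6.67e-05), so the transcript fell by 16.2%. An antisense gene, Gm48342, overlaps 12.1% of its exonic bases and had at most 46 counts in a sample.

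Idi1 (ENSMUSG00000058258, chromosome 13, 8885501 to 8892451), which interconverts the isoprenoid units, had 31.9, 31.4 and 31.7 CPM in control and 30.2, 28.6 and 28.4 CPM in cKO. An antisense gene, Gm48574, overlaps 9.22% of its exonic bases and had at most 6 counts. The groups did not overlap, and the log2 fold change was -0.13 (SE 0.04, edgeR adjusted p = 0.0445). This call was held by 4 of 14 other ways of processing, which include the 6 fits that left out a sample. Of those 6 fits, 1 held it. Lss (ENSMUSG00000033105, chromosome 10, 76531588 to 76557138), which closes the sterol rings, had 26.4, 26.6 and 26.6 CPM in control and 24.8, 23.9 and 24.6 CPM in cKO. The groups did not overlap and the log2 fold change was -0.12 (standard error 0.04), close to that of Idi1, but the adjusted p was 0.056 in edgeR's test. Idi1 and Lss thus lay on either side of the threshold with nearly equal values.

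Sqle, Fdft1 and Fdps showed no difference beyond the spread of the samples. Sqle (ENSMUSG00000022351, chromosome 15, 59315077 to 59331192), often described as a second control point of the pathway, had 44.9, 43.9 and 43.7 CPM in control and 47.8, 43.2 and 44.7 CPM in cKO, with a 95% interval of the log2 fold change of -0.05 to 0.12. Fdft1 (ENSMUSG00000021273, chromosome 14, 63145150 to 63179578), the first enzyme committed to sterols, had 32.2, 31.6 and 30.6 CPM in control and 31.7, 31.7 and 30.4 CPM in cKO, with an interval of -0.09 to 0.08. Of its exonic bases 18.3% overlap Ctsb, a lysosomal protease gene on the opposite strand. Ctsb had 10248, 11617 and 11364 counts in control replicates 1 to 3 and 11019, 14390 and 11940 in the cKO replicates. The strand setting of the counting is not stated. Whether Ctsb reads entered the Fdft1 counts, and so its fold change, was not tested. Fdps (ENSMUSG00000059743, chromosome 3, 89093588 to 89101959), which makes farnesyl diphosphate, had 6.49, 7.34 and 7.23 CPM in control and 6.93, 7.13 and 6.43 CPM in cKO, with a wider interval of -0.20 to 0.12. The gene Gm43738 overlaps 26.7% of its exonic bases on the same strand and had at most 7 counts. The adjusted p values were 0.681, 0.933 and 0.785 in edgeR's test. The interval of Sqle lay above those of Srebf2 and Hmgcs1, although all are listed as targets of one factor.

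Processed pseudogenes, which are copies of spliced transcripts, held many counts beside some of these genes, and the aligner used does not split reads over introns. The 4 processed pseudogenes whose transcripts share at least 1 exact window of 75 bases with Fdps (Gm3571, Gm5873, Gm7979 and Gm8163) drew 2825, 3196 and 3338 counts in control replicates 1 to 3 and 2567, 2995 and 2872 counts in cKO replicates 1 to 3. Fdps itself had 364, 461 and 440 in the former and 334, 428 and 360 in the latter. The pseudogenes thus held 87.4% to 88.9% of the sum of both in a sample. For Idi1 the share of its 4 processed pseudogenes was 39.6% to 42.6%, for Fdft1 that of Gm6781 was 35.3% to 39.3%, and for Insig1 that of Gm37784 was 3.66% to 4.68%. Srebf2, Hmgcs1, Sqle and Lss shared no such window with a processed pseudogene. When each gene was summed with its processed pseudogenes, a choice made after seeing the data, the log2 fold change was -0.02 for Fdps, -0.03 for Fdft1 and -0.10 for Idi1, and the adjusted p of Idi1 rose to 0.0729 in edgeR's test. How much of the pseudogene counts came from transcripts of the genes was not tested.

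**Figure D2:**
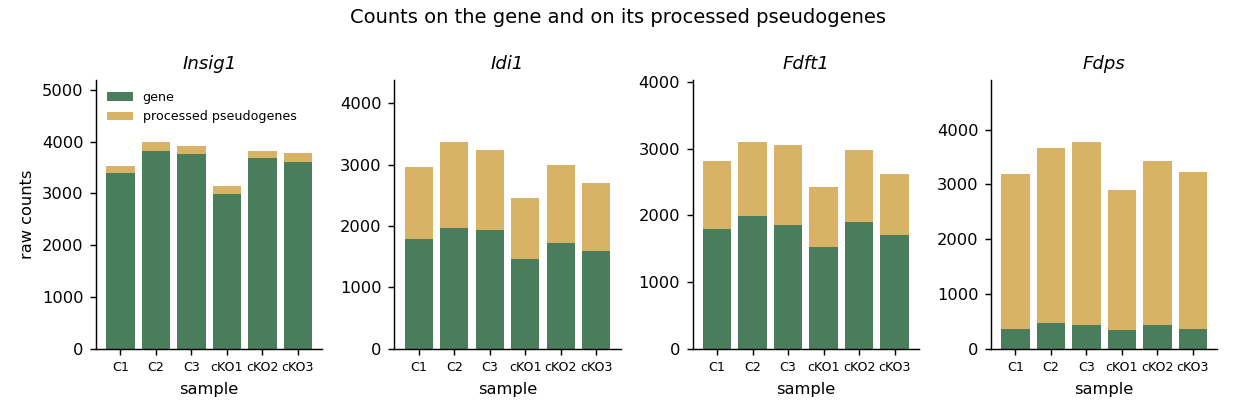
Raw counts (vertical axes starting at 0) on Insig1, Idi1, Fdft1 and Fdps (green) and, stacked on them, on the processed pseudogenes that share exact windows of 75 bases with each (yellow), in control samples C1 to C3 and cKO samples cKO1 to cKO3. The pseudogenes hold 87.4% to 88.9% of the sum for Fdps and 3.66% to 4.68% for Insig1.

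Levels can be compared between genes only per length, here as normalised CPM per kb of all annotated exonic bases. In control, Hmgcs1 was highest with 31.9 ± 0.388, followed by Insig1 with 19.7 ± 0.203, Srebf2 with 15.7 ± 0.817 and Idi1 with 9.04 ± 0.0736 (SD, n = 3 each). Sqle had 7.97 ± 0.112, Fdft1 7.44 ± 0.192, Lss 2.46 ± 0.0123 and Fdps 1.67 ± 0.110. The order was the same in cKO. There, Idi1 with 8.29 ± 0.275 and Sqle with 8.16 ± 0.416 differed by less than their spread, while the gap between Insig1 with 20.3 ± 0.535 and Srebf2 with 12.7 ± 1.15 CPM per kb was larger than in control. The levels of Fdps, Idi1 and Fdft1 leave out what was counted on their pseudogenes. The length used covers the exons of all annotated transcripts of a gene, 10787 bases for Lss and 4227 for Fdft1. Before division by length, their control means were 26.5 and 31.5 CPM, so the order of the levels depends on the annotation.

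Promoter sequences were available for 5 of the 8 genes in RefSeq (GRCm38.p6, 250 bases before to 50 after the start), and 3 are shown because they belong to the 2 genes that fell under every way of processing and to the other regulator, which did not fall. They are written from 5′ to 3′ on the plus strand, with every match to TCACNCCAC, a form of the sterol regulatory element that SREBP2 binds, and to CCAAT, the box bound by its partner NF-Y, in capitals; on the other strand the box reads ATTGG.
Srebf2, chr15:82147019-82147318: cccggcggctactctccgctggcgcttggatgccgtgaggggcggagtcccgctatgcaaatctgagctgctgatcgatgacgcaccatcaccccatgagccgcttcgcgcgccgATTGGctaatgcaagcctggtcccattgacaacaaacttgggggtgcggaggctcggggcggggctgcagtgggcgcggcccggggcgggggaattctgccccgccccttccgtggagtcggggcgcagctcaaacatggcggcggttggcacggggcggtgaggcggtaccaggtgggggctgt
Hmgcs1, chr13:119690101-119690400: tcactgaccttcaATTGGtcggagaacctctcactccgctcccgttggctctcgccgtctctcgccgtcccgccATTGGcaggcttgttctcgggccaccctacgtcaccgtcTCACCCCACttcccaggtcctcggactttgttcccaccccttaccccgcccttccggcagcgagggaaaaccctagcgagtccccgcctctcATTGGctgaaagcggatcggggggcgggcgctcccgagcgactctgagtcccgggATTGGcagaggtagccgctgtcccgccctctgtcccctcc
Insig1, chr5:28071162-28071461: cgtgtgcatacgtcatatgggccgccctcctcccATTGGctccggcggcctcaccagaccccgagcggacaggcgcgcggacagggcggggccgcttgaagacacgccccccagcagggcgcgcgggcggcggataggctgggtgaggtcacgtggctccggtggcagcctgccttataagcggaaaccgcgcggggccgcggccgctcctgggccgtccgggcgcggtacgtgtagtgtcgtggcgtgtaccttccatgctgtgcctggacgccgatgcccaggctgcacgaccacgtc

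Hmgcs1 had 1 match to TCACNCCAC, on the plus strand at base -137 from the start, and the other 4 promoters, those of Srebf2, Insig1, Idi1 and Lss, had none. In 32841 promoters of the same length, 1.24% had a match on either strand. No other form of the sterol regulatory element was searched, so a promoter without a match may still hold another form. CCAAT was present in 5 of 5 promoters, against 37.4% of all promoters, with 4 matches in Hmgcs1, 2 in Idi1 and 1 each in Srebf2, Insig1 and Lss. GGGCGG, the box of Sp1, was also present in 5 of 5, against 35.7% of all. CACGTG, an E-box, was present in Insig1 alone among the 5, at base -101, against 7.15% of all promoters. The motifs found did not separate the promoters of Srebf2 and Idi1, which were lower in cKO, from that of Lss, which did not pass: all had CCAAT and GGGCGG and no match to the other motifs. No match in these 5 promoters overlapped another, and a match is a description of the letters only.

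The wider enzyme list, which runs from acetyl-CoA to cholesterol and includes 6 of the 8 genes, had 21 genes, all tested. Of these, 2 were lower in cKO (Hmgcs1 and Idi1) and 1 was higher (Sc5d), 14.3% in all against 15.8% of all genes, with a median log2 fold change of -0.05. Among the 15 enzymes that are not among the 8 genes, 0 were lower in edgeR's test, with 2 lower at an unadjusted p under 0.05 and 0 in DESeq2. Sc5d, the sterol desaturase of a late step, rose in cKO, with 26.8, 27.8 and 27.9 CPM in control and 32.3, 32.0 and 34.7 CPM in cKO. Its log2 fold change of 0.26 (SE 0.04, edgeR adjusted p = 0.000536) was about as large as that of Hmgcs1 and opposite in sign.

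No other enzyme named here passed the test. Before Hmgcs1 in the pathway, the log2 fold change was 0.02 for the thiolase gene Acat2. Between Hmgcs1 and Idi1, it was 0.03 for mevalonate kinase (Mvk), -0.10 for phosphomevalonate kinase (Pmvk) and -0.05 for mevalonate decarboxylase (Mvd). Among the genes that trim lanosterol, it was -0.04 for Cyp51, -0.05 for Tm7sf2, -0.05 for Lbr, 0.05 for Msmo1, -0.10 for Nsdhl and 0.01 for Hsd17b7. At the last steps it was -0.06 for Ebp and -0.14 for Dhcr7. These values stayed within 0.14 of 0 on either side, and the plot of enzyme changes shows their intervals.

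**Figure D3:**
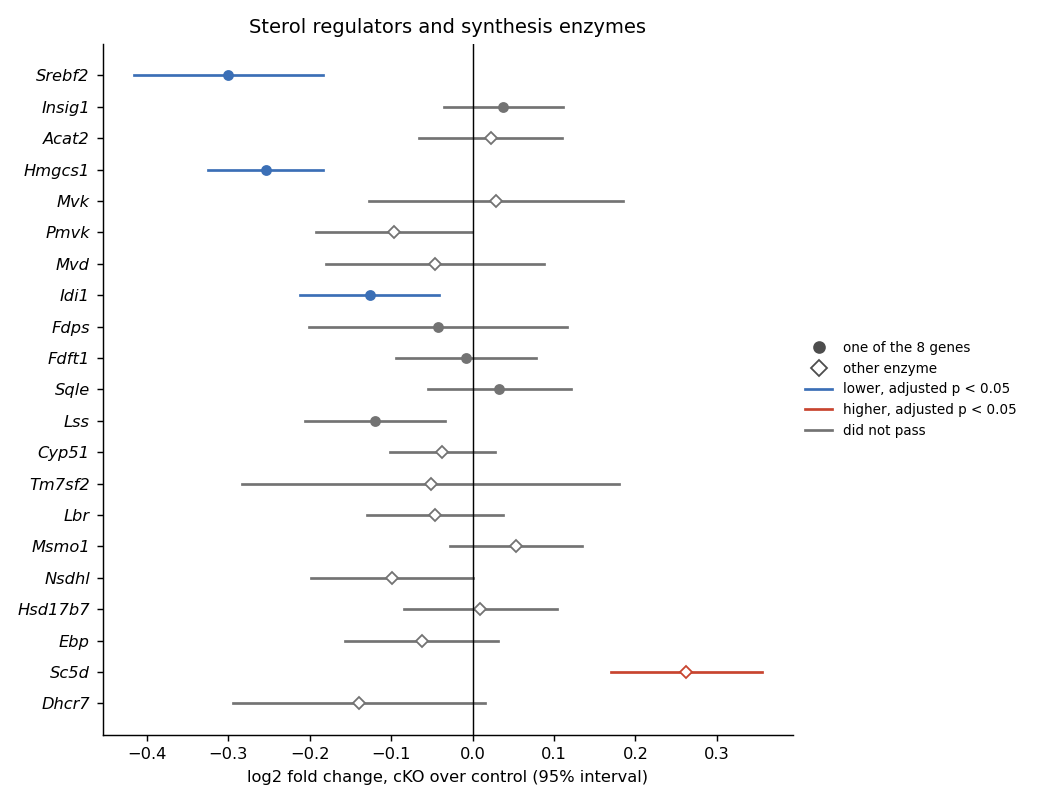
Log2 fold change of cKO over control with its 95% interval (horizontal axis) for Srebf2, Insig1 and 19 sterol synthesis enzymes in the order of the pathway; filled circles are the 8 genes, open diamonds other enzymes, blue and red mark an adjusted p under 0.05 as lower and higher, and grey did not pass. Srebf2 and Hmgcs1 lie at -0.30 and -0.25, Sc5d lies at 0.26, and most others lie near 0.

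Of the 12 genes of SREBP processing and sterol sensing, 2 were lower (Srebf2 and Mbtps1) and 0 higher in edgeR's test, with 0 higher at an unadjusted p under 0.05 and 0 in DESeq2. This was 16.7% of the list, against 15.8% of all genes. Mbtps1, the site-1 protease gene, went from 135 ± 0.872 to 124 ± 4.10 CPM (SD, n = 3 each), or a log2 fold change of -0.12 (edgeR adjusted p = 0.0155). This call was kept by 3 of 6 fits that left out a sample. Scap, which escorts SREBP2, had a log2 fold change of -0.0040, Insig2, the second retention factor, -0.05, and Srebf1, the relative of Srebf2 that drives fatty acid synthesis, -0.01. None of these 3 genes passed, and they were chosen for mention after their values were seen.

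In the list of sterol uptake and transport, 2 of 13 genes were lower and 3 were higher, 38.5% in all against 15.8% of all genes, and the median log2 fold change was -0.03. Vldlr, a lipoprotein receptor gene, had -0.17 (adjusted p = 0.0185) and Osbp, which encodes a sterol carrier between endoplasmic reticulum and Golgi, had -0.20 (adjusted p = 0.0273, both from edgeR). Without cKO replicate 1 the value of Osbp was -0.13. Lipa, the lysosomal acid lipase that frees cholesterol from lipoproteins, rose from 35.7 ± 1.20 to 47.8 ± 3.01 CPM (SD, n = 3 each), or a log2 fold change of 0.42 (edgeR adjusted p = 1.29e-05). Npc2, which carries cholesterol out of the lysosome, had 0.14, and Scarb1, a receptor for high-density lipoprotein, had 0.21. With each sample left out in turn, Lipa and Npc2 were called in 6 of 6 fits, Osbp in 4, Vldlr in 3 and Scarb1 in 2. All 14 macrophage markers were higher in the same cKO samples, and the part of such cells in the rise of these genes was not tested.

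In the list of sterol efflux and esterification, 5 of 10 genes were higher, where 9.38% of all genes were, and 0 were lower in edgeR's test (0 lower at an unadjusted p under 0.05 and 0 in DESeq2). Its median log2 fold change was 0.38. Soat1, which esterifies cholesterol for storage, rose from 133 ± 0.977 to 172 ± 10.2 CPM (SD, n = 3 each), or a log2 fold change of 0.36 (edgeR adjusted p = 8.48e-06), and Nceh1, which hydrolyses such esters, rose by 0.39 on the log2 scale. The transporter genes Abca1 and Abcg1, targets of the oxysterol receptor LXR, rose by 0.67 and 0.78. Abca1 had 7.10, 6.93 and 6.08 CPM in control and 9.96, 12.2 and 9.73 CPM in cKO. Ch25h, which makes an oxysterol that blocks SREBP2 processing, rose by 1.02 from a low level, with 0.624, 0.589 and 0.641 CPM in control and 1.16, 1.27 and 1.32 CPM in cKO. All 5 were called in 6 of 6 fits with a sample left out. These genes are also active in macrophages. The 14 macrophage markers, Ptprc (CD45) among them, rose by a median of 1.09 on the log2 scale in the same samples. The samples had been sorted as negative for CD45 before the culture. The part of macrophages in the rise of these 5 genes was not tested.

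In the list of fatty acid synthesis, 5 of 13 genes were higher, where 9.38% of all genes were, and 0 were lower in edgeR's test (0 lower at an unadjusted p under 0.05 and 0 in DESeq2), with a median log2 fold change of 0.10. Elovl6, which lengthens fatty acids, had 0.28 and the desaturase gene Fads1 had 0.24, and both were called in 6 of 6 fits with a sample left out. Acaca, Fasn and Acly, which make malonyl-CoA, palmitate and cytosolic acetyl-CoA, had 0.14, 0.12 and 0.11, and were called in 3, 2 and 2 of these fits. Of 12 genes of the non-sterol branches of the pathway, 8.33% against 15.8% of all genes passed: 1 was higher (Nus1, a dolichol synthesis gene, 0.18) and 0 were lower in edgeR's test, with 1 lower at an unadjusted p under 0.05 and 0 in DESeq2. The median of this list was 0.0019.

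**Figure D4:**
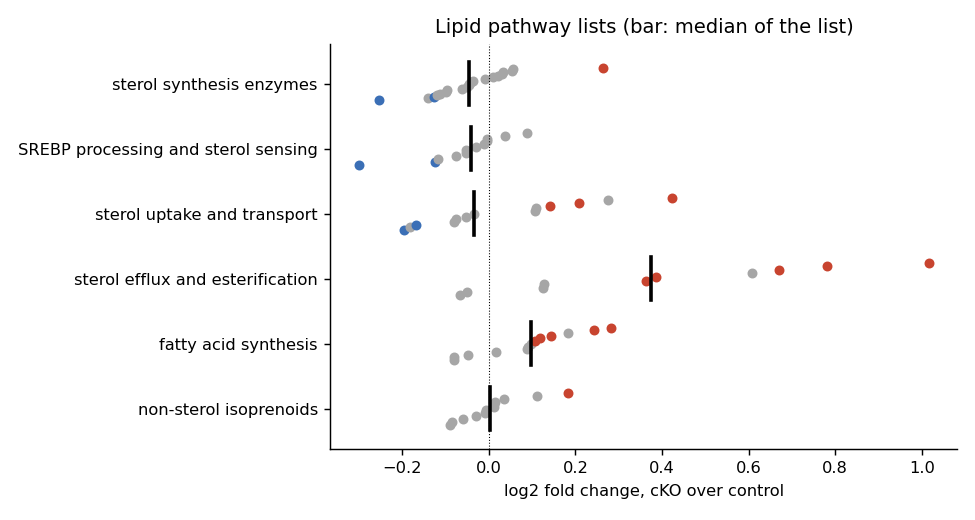
Log2 fold change of cKO over control (horizontal axis) of each tested gene in 6 lists of lipid genes; blue and red mark an adjusted p under 0.05 as lower and higher, grey did not pass, and black bars are list medians. The medians run from -0.05 for sterol synthesis enzymes to 0.38 for sterol efflux and esterification.

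The 8 genes lay at different distances from their mean profile over the 6 samples. Each gene's log2 CPM was centred on its mean, and the likeness of genes was measured as the root-mean-square distance between centred profiles over the 6 samples. The distance was not scaled, so it grows with the size of a change and not only with its pattern. The mean profile of the 8 genes lay at 0.05, 0.06 and 0.04 in control replicates 1, 2 and 3 and at -0.05 in each cKO replicate. Nearest to it, among genes in none of the lists with at least 10 CPM, were Gm12537, Lrpprc, Nmt1, Erbb2 and Inppl1, at distances of 0.0038 to 0.0094. The nearest of the 8 genes themselves were Lss, at 0.020 with 134 other genes nearer, and Idi1, at 0.032 with 726 nearer. Srebf2, with the largest log2 fold change of the 8 genes, lay farthest from the mean profile, at 0.13. Of the 10380 other genes compared, 9232 lay nearer. This is a description of these samples, and it says nothing on shared function or control.

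**Figure D5:**
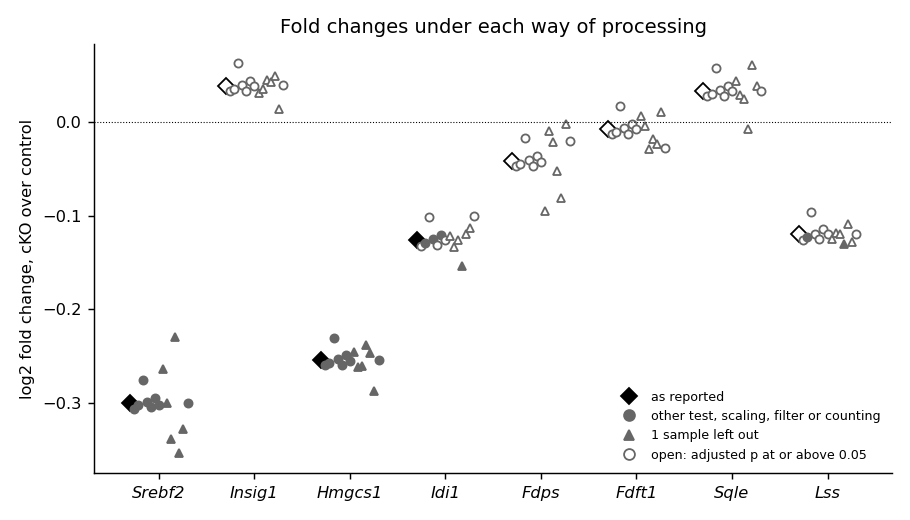
Log2 fold change of cKO over control (vertical axis) of the 8 genes as reported (black diamonds), under another test, scaling, filter or counting (circles) and with 1 sample left out (triangles); open symbols have an adjusted p at or above 0.05. Srebf2 lies between -0.35 and -0.23 and Hmgcs1 between -0.29 and -0.23 with all symbols filled, while Idi1 is filled in a minority.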

How the data were processed

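RNA of 3 control and 3 cKO samples (400 ng each) was depleted of ribosomal RNA, made into stranded libraries and sequenced as single reads of 75 bases. The deposited values are raw counts of reads per gene, one table per sample, which the authors made with Bowtie2 2.3.4.2 on mm10 and featureCounts 1.6.3, per the submitters' processing notes and the study's methods; the strand setting and the handling of reads with several matches are not given in the sources used here. Processed pseudogenes and other pseudogenes together hold 12.0% to 12.3% of the counts. A deposited table of the authors' own DESeq2 2.11.40.6 comparison (fold changes and p-values) and one of counts divided by size factors were not used.

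All 55536 gene identifiers matched GENCODE M21 (GRCm38). Genes with low counts were removed with filterByExpr, which left 22404, libraries were scaled with TMM, and cKO was compared with control in edgeR 4.0.16 (quasi-likelihood test, genotype as the only term, Benjamini-Hochberg adjustment over all genes, threshold 0.05; R 4.3.3). The standard error is the log2 fold change divided by the root of the F statistic. The test was run first on simulated data. Total counts were 47944477 to 63323577 per sample and intervals come from the spread between samples as edgeR estimates it. Alternatives were DESeq2 1.42.0, other scalings and filters, the replicate number as a block, each sample left out in turn, and genes summed with their processed pseudogenes, the last chosen after seeing the data.

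The 8 genes and the lists were chosen with earlier results of these data known. Named are the 8 genes, the tested sterol enzymes, up to 5 genes per list with the smallest adjusted p under 0.05, Hira, and the 5 genes nearest in profile; Scap, Insig2, Srebf1, Ptprc and Ly6a were added after their values were seen, and 2 enzymes are not reported here. Samples with the same replicate number did not deviate together (correlations -0.013, -0.0045 and -0.015), so they were not paired.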

Additional observations from a re-analysis of the deposited data

How the results depend on the processing

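Srebf2 and Hmgcs1 were called lower under all 14 alternatives. The number of the 8 genes called lower was 3 as reported, 2 with DESeq2, total counts, no filter, the replicate block, summed pseudogenes or any 1 sample but cKO replicate 1 left out, and 4 with RLE size factors or without cKO replicate 1; none was called higher in edgeR or DESeq2. Idi1 had adjusted p values of 0.0138 to 0.135 over its alternatives, and Lss 0.0485 to 0.16. In the 6 lipid lists, 6 genes were lower and 15 higher; total counts gave 3 lower and 18 higher, and the fits with 1 sample left out gave 2 to 8 lower and 12 to 16 higher (2 without control replicate 1, 3 without control replicate 2, 3 without control replicate 3). Over all genes, 1448 were lower and 2101 higher; total counts gave 1057 and 2462, DESeq2 1244 and 1601, and the fits with 1 sample left out 917 to 1673 lower and 1571 to 2214 higher (917, 934 and 960 lower without control replicates 1, 2 and 3). With the replicate block, where numbers do not pair the samples, 1251 genes were lower and 1901 higher, and 4 and 14 in the lists. Total counts moved the median of all genes to 0.023. Uncalled genes near 0 changed sign: Fdft1 was 0.017 with total counts and -0.029 to 0.010 with 1 sample left out, and with 1 sample left out Sqle ranged from -0.0078 to 0.060, Acat2 from -0.0096 to 0.048, Mvk from -0.052 to 0.089, Mvd from -0.092 to 0.012, Tm7sf2 from -0.11 to 0.038 and Hsd17b7 from -0.023 to 0.044. The causes were not tested.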
